A study of Mus musculus with 8 samples.

Results

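Nr4a1, Nr4a2, Nr4a3, Egr1, Egr2 and Egr3 are 6 of the 32285 genes in the matrix of this study and were taken from it by their symbols. All 6 were present. They were chosen by their levels across organs and classes in earlier results of these same counts, so those levels are given as a description. The Nr4a genes encode orphan nuclear receptors and the Egr genes encode zinc finger transcription factors. Blood and heart cells that stained for CD45 and CD11b were sorted from 4 mice, marked by organ with hashtag antibodies, pooled per animal and read by droplet single-cell RNA sequencing. All recipients were marrow-depleted Mx1Cre:c-Mybfl/fl mice, a genotype in which an interferon-inducible Cre deletes c-Myb, which blood-forming cells need. They received bone marrow from a stroke donor (2 mice, stroke replicates 1 and 2) or a control donor (2 mice, control replicates 1 and 2). Host cells that do not depend on the deleted gene remain, so tissue macrophages of the host may be among the heart cells. The labels and files give no ages, no donor genotype and no account of how stroke was induced. The organ comparison below asks where the 6 genes are expressed, and the donor comparison asks whether stroke marrow changes their expression in either organ.

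All 6 genes are immediate early genes, which means that their transcripts appear within minutes of a signal without new protein synthesis. Growth factor, cytokine and antigen receptor signals reach the Egr promoters through the ERK kinases, ternary complex factors and serum response factor, and reach the Nr4a promoters largely through calcium, cyclic AMP and CREB or MEF2 factors. Nr4a proteins bind DNA without a known physiological ligand, and in mice Nr4a1 (Nur77) is required for the nonclassical, Ly6C-low monocytes of the blood. Egr1 is known for its induction in monocytes, macrophages and injured vessels, Egr2 (Krox20) for Schwann cells and for tolerance in T cells, and Egr3 for muscle spindles and T cell activation.

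The promoters of Nr4a1, Nr4a2, Nr4a3 and Egr2 are shown because the genes moved together between the organs; those of Egr1 and Egr3 are not shown. On mm10 in the GENCODE annotation, Nr4a1 lies on chromosome 15 from 101254269 to 101274795 (+ strand), Nr4a2 on chromosome 2 from 57106830 to 57124003 (- strand) and Nr4a3 on chromosome 4 from 48045153 to 48086447 (+ strand). Egr2 lies on chromosome 10 from 67535475 to 67542188 and Egr3 on chromosome 14 from 70077203 to 70082614, both on the + strand. The 250 bases before an annotated RefSeq transcription start (GRCm38.p6) are given 5' to 3' on the strand of the gene. Capitals mark matches, on either strand, to the short CRE motif TGACG, bound by CREB factors, to the EGR site GCGNGGGCG, or to the CArG box, bound by serum response factor. The windows are chr15:101266596-101266845 for Nr4a1, chr2:57124004-57124253 for Nr4a2, chr4:48045055-48045304 for Nr4a3 and, for 1 of the 5 starts of Egr2, chr10:67537619-67537868.
Nr4a1: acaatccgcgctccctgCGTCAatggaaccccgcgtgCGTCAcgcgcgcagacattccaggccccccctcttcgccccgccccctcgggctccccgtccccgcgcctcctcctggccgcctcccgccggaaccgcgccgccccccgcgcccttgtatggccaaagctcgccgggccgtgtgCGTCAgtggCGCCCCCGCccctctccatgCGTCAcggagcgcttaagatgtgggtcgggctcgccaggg
Nr4a2: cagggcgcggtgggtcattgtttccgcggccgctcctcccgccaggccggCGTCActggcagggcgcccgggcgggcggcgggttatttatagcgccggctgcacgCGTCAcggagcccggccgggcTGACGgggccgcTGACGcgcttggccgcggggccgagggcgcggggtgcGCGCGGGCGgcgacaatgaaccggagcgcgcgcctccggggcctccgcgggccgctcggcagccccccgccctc
Nr4a3: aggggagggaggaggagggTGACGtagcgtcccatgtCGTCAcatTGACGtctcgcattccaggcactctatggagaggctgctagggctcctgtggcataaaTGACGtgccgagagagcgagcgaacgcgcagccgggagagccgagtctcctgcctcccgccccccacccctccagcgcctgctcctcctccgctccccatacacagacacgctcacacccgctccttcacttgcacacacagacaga
Egr2: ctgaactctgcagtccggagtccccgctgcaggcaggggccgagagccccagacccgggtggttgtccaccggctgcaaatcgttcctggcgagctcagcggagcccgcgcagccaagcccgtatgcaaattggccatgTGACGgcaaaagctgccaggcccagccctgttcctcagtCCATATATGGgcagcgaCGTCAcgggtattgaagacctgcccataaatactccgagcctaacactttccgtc

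Each of the 3 Nr4a windows held 4 short CRE motifs, a count that 45 of 32851 windows of this length reached (0.137%); 17.8% of windows held at least 1. The Nr4a1 and Nr4a2 windows also held 1 EGR site each, which 4.7% of windows held, and in neither did it overlap a short CRE motif. The Egr2 window held 2 short CRE motifs and 1 CArG box, a motif present in 1.47% of windows. It is 1 of the windows of Egr2 with the most matches: the window chr10:67535249-67535498 held none of the motifs, and chr10:67537316-67537565 held a CArG box and no short CRE motif. No printed window held the full CRE TGACGTCA (1.55% of windows) or the Nr4a monomer site AAAGGTCA (1.34%). These matches describe letters and are not evidence of binding.

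The libraries held 2020 to 3303 barcodes and 10059365 to 16482961 gene UMIs, with medians of 3996 to 4681.5 UMIs per barcode. Of 11130 barcodes, 9654 stayed after removal of 954 with both hashtags, 101 with neither, low-quality barcodes and called doublets. Only 14 barcode sequences occurred in more than 1 library. Clusters were named from markers as macrophage-like, classical and nonclassical monocyte-like, dendritic cell-like, neutrophil-like, NK cell-like and B cell-like, and 216 barcodes stayed unnamed. T cell-like and endothelial-like barcodes reached 20 only in some mice, fibroblast-like and mast cell-like or basophil-like ones in none, and levels in these classes are not given. The sort label names myeloid cells, yet B cell-like and NK cell-like barcodes were present, and 990 of the 1306 blood barcodes of stroke replicate 2 were B cell-like. Control replicate 1 differed from the other 3 libraries in sex-linked transcripts, with 1 UMI of Xist and 599 of Ddx3y, against 6472 to 13794 and 1 to 3 in the others. Levels are the UMIs of a gene per 1000000 UMIs (CPM) of all barcodes of a class in a mouse, and means ± SD are over the 4 mice of both donor groups unless said otherwise.

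In the heart each gene was spread over the classes in its own way. Most Egr1 UMIs were in macrophage-like barcodes and the largest share of Nr4a1 UMIs in nonclassical monocyte-like barcodes, while Nr4a2 was spread over several classes. Macrophage-like barcodes held 64.0% ± 7.14 of the heart Egr1 UMIs and 68.8% ± 2.76 of the Egr2 UMIs, with 43.6% ± 9.54 of all heart UMIs (SD, n = 4). Nonclassical monocyte-like barcodes held 41.6% ± 9.31 of the Nr4a1 UMIs with 9.95% ± 2.33 of all UMIs. Of the Nr4a2 UMIs, classical monocyte-like barcodes held 28% ± 7.68, NK cell-like 17.6% ± 2.79, dendritic cell-like 16.8% ± 9.05 and nonclassical monocyte-like 16.8% ± 4.66. NK cell-like barcodes held 2.36% ± 0.46 of all UMIs. Clusters were built from the same cells, so these differences between classes are described without a test.

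Nr4a1 was highest in nonclassical monocyte-like barcodes of the heart, with 885 and 925 CPM in the stroke mice and 1347 and 1023 CPM in the control mice. Classical monocyte-like barcodes followed with 554 ± 22.4 CPM, a range of 525 to 580 that did not reach the nonclassical values. Neutrophil-like (305 ± 161 CPM) and dendritic cell-like barcodes (286 ± 72.6 CPM) came next and overlapped each other. NK cell-like (104 ± 64.8 CPM), macrophage-like (89.0 ± 23.4 CPM) and B cell-like barcodes (75.7 ± 17.6 CPM) were lowest and could not be ordered beyond their spread. In the blood the order began in the same way, with 306 ± 67.5 CPM in nonclassical and 57.9 ± 10.2 CPM in classical monocyte-like barcodes, and every other blood class averaged at most 20.5 CPM.

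The nonclassical level of Nr4a1 was 1.53 and 1.66 times the classical level in hearts of the stroke mice and 2.56 and 1.85 times in hearts of the control mice (mean 1.9 ± 0.462). In blood the ratio was 5.3 and 4.89 in the stroke mice and 5.66 and 5.18 in the control mice (mean 5.26 ± 0.321). The ratio was thus lower in the heart than in the blood in all 4 mice, without overlap. Splitting the monocyte-like barcodes by Ly6c2, which encodes the Ly6C antigen of classical monocytes, kept the order without clusters. Heart barcodes with no Ly6c2 UMI had 1008 ± 164 CPM of Nr4a1 and those with 2 or more had 466 ± 28.8 CPM, and in blood the values were 243 ± 47.7 and 52.2 ± 8.74 CPM.

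Nr4a2 (Nurr1), the receptor known best from dopamine neurons, was highest in NK cell-like barcodes of the heart, at 404 and 747 CPM in the stroke mice and 709 and 493 CPM in the control mice. Classical monocyte-like (262 ± 74.3 CPM) and dendritic cell-like barcodes (232 ± 69.8 CPM) followed and overlapped, and neither reached the NK cell-like values. Nonclassical monocyte-like barcodes had 133 ± 49.8 CPM, less than the classical ones on average but within overlapping ranges. B cell-like (31.3 CPM), macrophage-like (21.3 CPM) and neutrophil-like barcodes (21.3 CPM) were lowest and overlapped.

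Nr4a3 (Nor1), the third receptor of the family, averaged 186 ± 147 CPM in neutrophil-like, 178 ± 101 CPM in dendritic cell-like and 177 ± 135 CPM in NK cell-like barcodes of the heart. These 3 classes could not be told apart, and in each of them control replicate 1 was the highest mouse. Classical monocyte-like barcodes had 98.8 ± 15.6 CPM, B cell-like 49.0 ± 21.3 CPM, nonclassical monocyte-like 29.9 ± 7.70 CPM and macrophage-like 13.4 ± 8.14 CPM. The classical values did not overlap those of the 3 lower classes, so that within heart monocyte-like barcodes the order of Nr4a3 was the reverse of that of Nr4a1.

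Egr1, whose gene is on chromosome 18, is the most studied of the zinc finger factors. This activator of inflammatory and growth genes had 1295 and 1667 CPM in heart macrophage-like barcodes of the stroke mice and 1332 and 1545 CPM in those of the control mice. All 4 values lay above every other class. Neutrophil-like (873 ± 156 CPM), classical (801 ± 80.8 CPM) and nonclassical monocyte-like barcodes (759 ± 176 CPM) overlapped one another, and dendritic cell-like barcodes had 554 ± 104 CPM. NK cell-like barcodes had 126 ± 123 CPM and B cell-like barcodes 36.3 ± 19.2 CPM. Blood held little Egr1 in any class, between 6.81 and 19.3 CPM on average.

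Egr2 reached 28.4 ± 13.3 CPM in macrophage-like and 20.3 ± 9.48 CPM in dendritic cell-like barcodes of the heart, and averaged at most 11.7 CPM in the other heart classes. That 11.7 CPM, in NK cell-like barcodes, rested on control replicate 1 (46.6 CPM, against 0 in the other mice). Egr3 was the rarest member, with 289 UMIs over all barcodes. Its heart levels ranged from 0.62 CPM in nonclassical monocyte-like to 22.7 ± 13.6 CPM in neutrophil-like barcodes, apart from a mean of 45.6 CPM in NK cell-like barcodes that rested on control replicate 1. There all 19 Egr3 UMIs came from a single barcode. The heat map of mean levels shows the 6 patterns side by side.

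**Figure D1:**
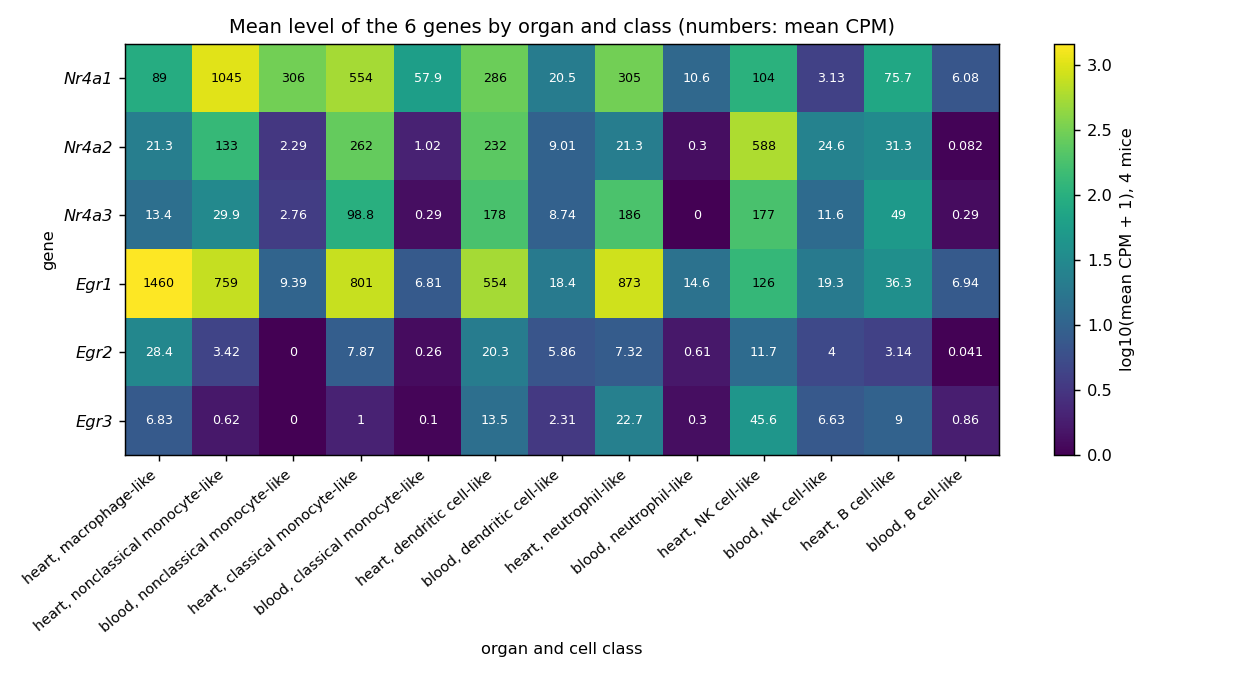
Mean level of each gene (rows) in each class and organ (columns) over 4 mice, printed as CPM, with colour showing log10 of the mean CPM + 1. Egr1 peaks in heart macrophage-like barcodes (1460 CPM), Nr4a1 in heart nonclassical monocyte-like barcodes (1045 CPM) and Nr4a2 in heart NK cell-like barcodes (588 CPM).

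All 6 genes had higher values in the 4 hearts than in the 4 blood samples when all barcodes of an organ were summed. Egr1 had 1055 and 1137 CPM in hearts of the stroke mice and 739 and 1017 CPM in hearts of the control mice, against 4.10 and 7.09 CPM in blood of the stroke mice and 19.0 and 8.63 CPM in blood of the control mice. The organs did not overlap, and the log2 fold change of heart over blood was 6.85 (SE 0.545, edgeR quasi-likelihood test, adjusted p = 0.00235). Nr4a2 had 72.2, 77.2, 88.5 and 67.3 CPM in hearts of stroke replicates 1 and 2 and control replicates 1 and 2, against 2.498, 2.94, 3.17 and 1.78 CPM in their blood (4.86, SE 0.148, edgeR adjusted p = 0.000225). Nr4a1 averaged 248 ± 43.4 CPM in heart and 50.4 ± 26.3 CPM in blood (2.51, SE 0.393, edgeR adjusted p = 0.0147).

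Nr4a3 averaged 54.4 ± 27.1 CPM in heart and 2.15 ± 2.33 CPM in blood (log2 fold change 4.76, SE 0.745, edgeR adjusted p = 0.0147). Egr2 averaged 16.8 ± 3.60 CPM in heart and 0.821 ± 0.935 CPM in blood (4.43, SE 0.583). Egr3 averaged 9.55 ± 5.67 CPM in heart and 1.25 ± 1.77 CPM in blood, and its log2 fold change of 3.16 (SE 0.791) missed the threshold. Egr2 and Egr3 did not pass the count filter in blood alone, so they had to differ. Their values are a description and carry no p here. The other 4 members were all called higher in heart, where 9.93% of the 12067 genes tested were called higher. Some of these calls were lost when a mouse was left out, although the direction held. Without stroke replicate 1 the edgeR adjusted p-values of Nr4a1 and Nr4a3 were 0.0836 and 0.0795, and without control replicate 1 they were 0.0571 and 0.0554. Without control replicate 2 that of Nr4a1 was 0.0638. Egr3 was called without stroke replicate 2, where 4838 genes were called, and with DESeq2. As Egr3 had to differ, these calls are a description too. The genes were proposed with earlier results of these data in view, so these tests are not independent evidence of a difference. Macrophage-like barcodes reached 20 per mouse only in heart, so the sums of all barcodes also differ in their classes.

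Within a class the direction was the same for Nr4a1, Nr4a2, Nr4a3 and Egr1, but not always for Egr2 and Egr3. Counting the sum of all barcodes, Egr2 was higher in heart in all 4 mice in 3 of 7 sums and Egr3 in 4 of 7. In NK cell-like barcodes Egr2 was higher in heart in 1 of 4 mice and Egr3 in 2 of 4. In the 6 classes present in both organs, Nr4a1, Nr4a2 and Nr4a3 lay higher in all 4 hearts than in all 4 blood samples in every class. Egr1 did so in 5 classes and overlapped only in NK cell-like barcodes. Among genes with a mean of at least 10 CPM, the set behind every share of separated genes below, separation of this kind occurred in 4.01% in B cell-like, 4.39% in NK cell-like, 8.62% in classical monocyte-like, 4.62% in dendritic cell-like, 8.19% in neutrophil-like and 5.45% in nonclassical monocyte-like barcodes, and in 14.7% in the sums of all barcodes. Egr2 and Egr3 were too low to pass the filter on counts in any of these classes, and Nr4a2 did not pass it in B cell-like and neutrophil-like barcodes or Nr4a3 in nonclassical monocyte-like barcodes. A gene that passes the filter only through its heart counts had to differ. Of the tested members, only Nr4a1 and Egr1 in classical, Nr4a1 in nonclassical monocyte-like and Nr4a1 in dendritic cell-like barcodes also passed it in blood alone, so the fold changes of the others are a description and carry no p here. The heart and blood barcodes of a class were in part held by different clusters: cluster 11 held most classical monocyte-like barcodes of the heart and cluster 2 those of the blood, clusters 9 and 1 did so for neutrophil-like barcodes, and clusters 8 and 6 for nonclassical ones.

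**Figure D2:**
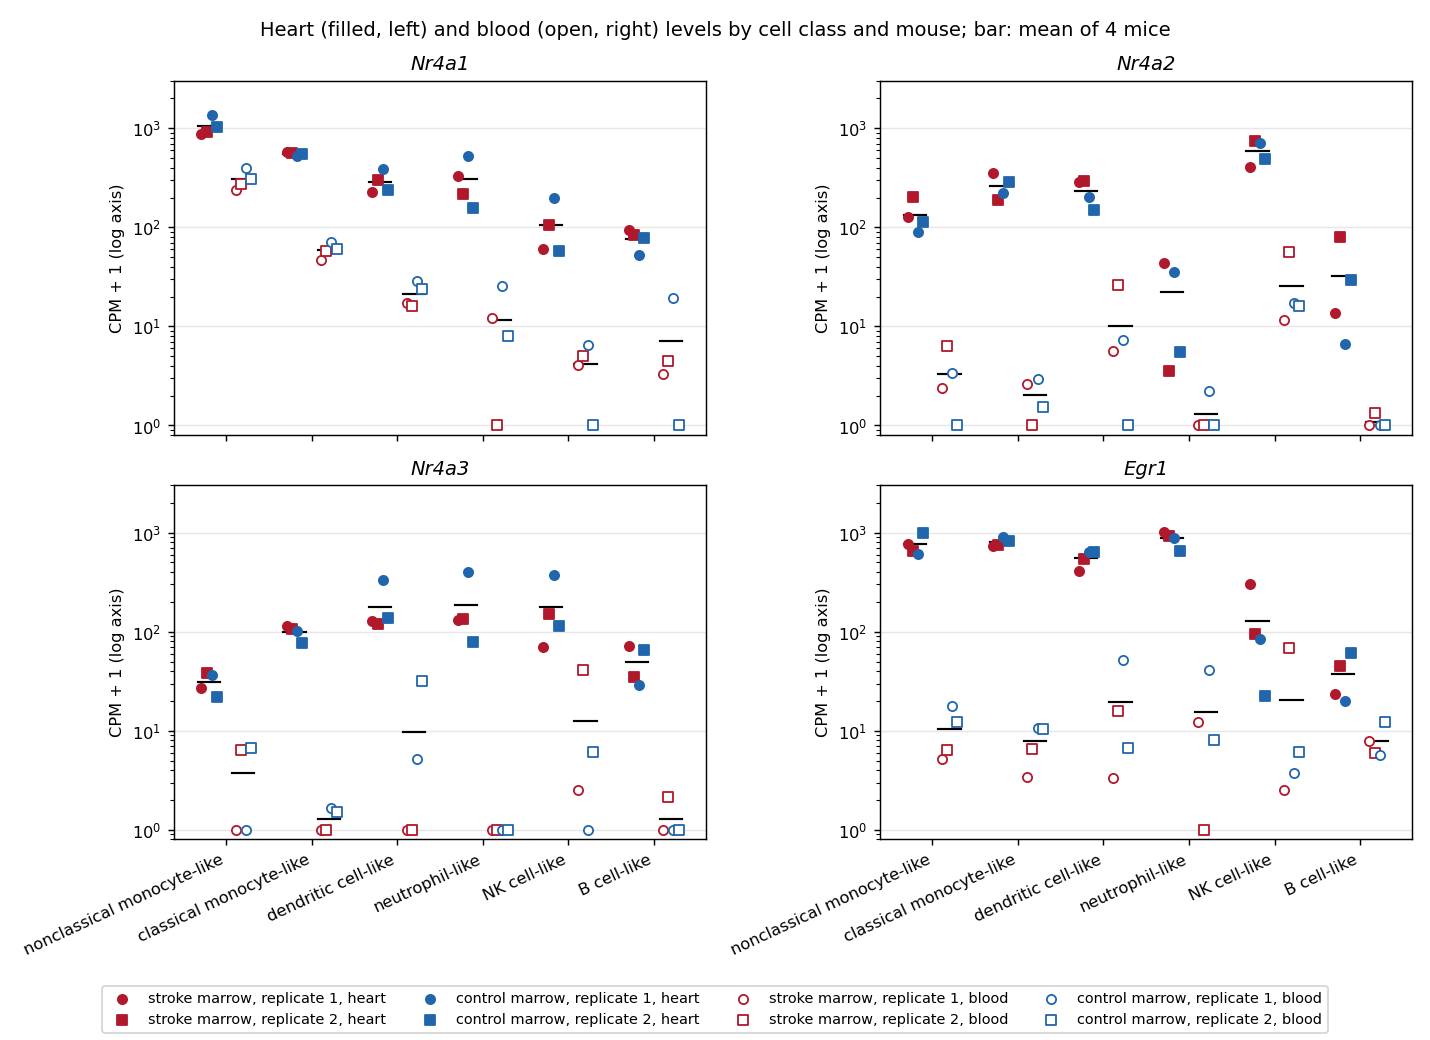
Level of Nr4a1, Nr4a2, Nr4a3 and Egr1 in each class, as CPM + 1 on a log axis, with heart as filled symbols on the left and blood as open symbols on the right of each class. Colour and shape give the mouse and bars give the mean of 4 mice. Heart values lie above blood values in every class for the 3 Nr4a genes, and Egr1 overlaps only in NK cell-like barcodes.

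In classical monocyte-like barcodes Egr1 had 730, 745, 905 and 826 CPM in hearts of stroke replicates 1 and 2 and control replicates 1 and 2, against 2.43, 5.62, 9.74 and 9.46 CPM in their blood. Pooled over the mice this was 120-fold (95% counting interval 88.1 to 168), with an edgeR log2 fold change of 7.04 (SE 0.158, adjusted p = 3.58e-23). Nr4a2 had 506 UMIs in heart and 8 in blood, a 205-fold ratio (103 to 477, log2 fold change 7.83, SE 0.236). Nr4a3 had 192 UMIs in heart and 2 in blood, a ratio of 311 whose counting interval ran from 84.9 to 2580. Nr4a1 had a smaller ratio of 9.87 (8.74 to 11.2, log2 fold change 3.41, SE 0.114, adjusted p = 1.76e-19), from a higher level in blood. Egr1 and Nr4a1 were thus called, where 13.4% of the genes tested in this class were called higher in heart. Markers moved between the organs too. The 13 macrophage markers, of which 11 to 13 were detected in heart and 8 to 13 in blood, summed to 1444 to 2624 CPM in heart and 918 to 1023 CPM in blood. The 9 classical monocyte markers, all detected, summed to 6024 to 9617 CPM in heart and 10850 to 12760 CPM in blood. Their part in the result was not tested.

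In nonclassical monocyte-like barcodes Nr4a1 had 240 and 275 CPM in blood of the stroke mice and 397 and 310 CPM in blood of the control mice, the only blood class in which a member exceeded 100 CPM in a mouse. Its heart level was 3.39 times that of blood (3.08 to 3.74; log2 fold change 1.89, SE 0.085, edgeR adjusted p = 9.54e-53), the smallest ratio of the 3 Nr4a genes in any class. Egr1 averaged 759 ± 176 CPM in heart and 9.39 ± 5.74 CPM in blood (6.48, SE 0.180), and Nr4a2 133 ± 49.8 CPM in heart and 2.29 ± 2.28 CPM in blood (6.01, SE 0.376). In this class 10.3% of genes were called higher in heart. Macrophage markers overlapped between the organs here, at 1309 to 1448 CPM in heart and 1305 to 1475 CPM in blood, while the 9 nonclassical monocyte markers summed to 4940 to 5519 CPM in heart and 5661 to 6292 CPM in blood.

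Heart barcodes of the nonclassical class fell into a pair of clusters with different Egr1. Cluster 8 (565 heart barcodes), which has Nr4a1 among its leading genes, had 1119 ± 236 CPM of Nr4a1 and 896 ± 207 CPM of Egr1. The 145 heart barcodes in cluster 6, which also holds nearly all blood barcodes of the class, had 634 ± 6.85 CPM of Nr4a1 and 49.96 ± 29.4 CPM of Egr1 in the 3 mice with at least 20 such barcodes. The 479 blood barcodes of cluster 6 had 303 ± 68.1 CPM of Nr4a1 and 9.42 ± 5.74 CPM of Egr1. Within cluster 6 the heart barcodes were therefore above the blood barcodes for both genes in these 3 mice. The clusters were drawn from these genes among others, so the contrast of clusters is a description.

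**Figure D3:**
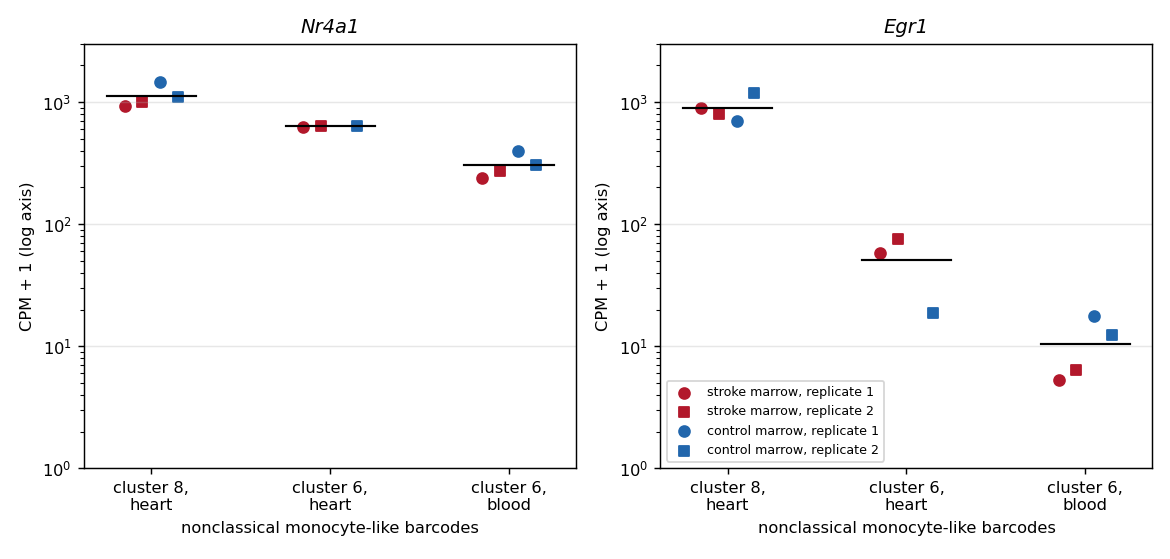
Nr4a1 and Egr1 in nonclassical monocyte-like barcodes by cluster and organ, as CPM + 1 on a log axis, 1 symbol per mouse with at least 20 barcodes and bars for the mean. Heart barcodes of cluster 6 lie between cluster 8 of the heart and cluster 6 of the blood for both genes, with 634 CPM of Nr4a1 but 49.96 CPM of Egr1 on average.

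In neutrophil-like barcodes Nr4a3 had 131.5 and 132.9 CPM in hearts of the stroke mice and 403.5 and 77.88 CPM in hearts of the control mice, and no UMI in blood of any of the 4 mice. With 3 counts over the 4 blood samples as the limit that a count of 0 allows, heart was at least 106-fold higher. Egr1 averaged 873 ± 156 CPM in heart and 14.6 ± 17.7 CPM in blood (log2 fold change 5.73, SE 0.291), and Nr4a1 305 ± 161 CPM in heart and 10.6 ± 10.2 CPM in blood (4.84, SE 0.236). In this class 15.5% of genes were called higher in heart. Mitochondrial UMIs also differed, at 1.10 to 1.65% of UMIs in heart and 0.27 to 0.573% in blood, and macrophage markers summed to 399 to 517 CPM in heart and 275 to 368 CPM in blood. The part of either in the result was not tested.

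Dendritic cell-like barcodes had 413 to 636 CPM of Egr1 in heart and 2.33 to 50.6 CPM in blood (log2 fold change 5.12, SE 0.389). Nr4a2 averaged 232 ± 69.8 CPM in heart and 9.01 ± 11.01 CPM in blood (5.16, SE 0.386), and Nr4a1 286 ± 72.6 CPM in heart and 20.5 ± 5.83 CPM in blood (3.83, SE 0.242, edgeR adjusted p = 6.27e-08), where 5.7% of genes were called higher. In NK cell-like barcodes Nr4a2 averaged 588 ± 166 CPM in heart and 24.6 ± 21.1 CPM in blood (4.75, SE 0.219), and 5.47% of genes were called higher. Egr1 there overlapped between organs. B cell-like barcodes had the lowest mean heart levels of Nr4a1, Egr1 and Egr2, but not of Nr4a2, Nr4a3 and Egr3. Nr4a1 there averaged 75.7 ± 17.6 CPM in heart and 6.08 ± 8.45 CPM in blood (3.90, SE 0.411). Egr1 averaged 36.3 ± 19.2 CPM in heart and 6.94 ± 3.08 CPM in blood (2.80, SE 0.323), and 5.33% of genes were called higher.

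The same contrast held per barcode at equal depth. After each barcode was thinned to 2000 UMIs, 83.3% ± 4.17 of nonclassical monocyte-like barcodes of the heart had a Nr4a1 UMI, against 45.2% ± 6.02 in blood (SD, n = 4); without thinning the shares were 88.6% and 59.5%. For classical monocyte-like barcodes the thinned shares were 58.0% ± 5.04 in heart and 8.92% ± 2.79 in blood, and the unthinned ones 79.6% and 20.7%. For Nr4a2 in NK cell-like barcodes they were 51.6% ± 5.09 in heart and 2.502% ± 0.724 in blood (60.5% and 6.43% unthinned). Egr1 was found in 64.2% ± 4.90 of thinned macrophage-like barcodes of the heart and in 4.02% ± 1.47 of B cell-like barcodes from the same hearts (68.6% and 7.83% unthinned). Barcodes too shallow to thin numbered 98 in heart and 48 in blood for nonclassical monocyte-like, 34 and 58 for classical monocyte-like and 33 and 55 for NK cell-like barcodes, and 215 macrophage-like and 20 B cell-like barcodes of the heart. In neutrophil-like barcodes 170 of the heart and 672 of the blood fell below 2000 UMIs, leaving 291 and 402, and thinned shares are not given for that class.

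Members also occurred together in barcodes. In heart macrophage-like barcodes at 2000 UMIs, Egr1 and Egr2 shared a barcode 1.55 and 1.42 times as often in the stroke mice and 1.53 and 1.45 times as often in the control mice as their separate shares would give. Nr4a1 and Egr1 did so 1.4 and 1.27 times as often in the stroke mice and 1.54 and 1.28 times in the control mice. In nonclassical monocyte-like barcodes the same pair was near its product, at 1.04 to 1.08 in the 4 mice, and Nr4a2 with Egr1 was below it, at 0.739 and 0.65 in the stroke mice and 0.83 in control replicate 2. Control replicate 1 had too few expected pairs for that value. Such a ratio cannot exceed the inverse of the larger share of the pair. Nr4a1 was in 80.1 to 89.1% of the thinned nonclassical monocyte-like barcodes, so its ratio had little room to rise there. Egr1 was in 59.6 to 70.6% of the macrophage-like ones, which also caps the ratios there. The classes can therefore not be compared by these ratios. Barcodes of a mouse share a library, so the ratios are given without a test.

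Heart macrophage-like barcodes could be split by the GFP transgenes listed in the matrix, although the labels do not say which animals carried them. A GFP UMI was found in 87.5 to 98.6% of classical monocyte-like barcodes of the blood and in 13.1 to 19.6% of macrophage-like barcodes of the heart. Macrophage-like barcodes with a GFP UMI had 164 and 169 CPM of Nr4a1 in the stroke mice and 243 and 131 CPM in the control mice, against 67.2, 63.3, 66.9 and 53.3 CPM in barcodes without one from the same mice in the same order. Nr4a3 had 18.9 and 17.9 CPM in the stroke mice and 73.8 and 13.6 CPM in the control mice with a GFP UMI, against 2.43 to 12.7 CPM without one. The 2 parts did not overlap in either gene, a separation that 5.15% of genes showed in this direction. An exact sign-flip test over 4 mice cannot go below p = 0.125. The other 4 members overlapped. Egr1 averaged 1345 ± 101 CPM with and 1490 ± 198 CPM without a GFP UMI, and Egr2 21.5 ± 9.52 CPM with and 31.2 ± 17.4 CPM without one. Nonclassical monocyte markers moved with Nr4a1: all 9 were detected in each mouse with a GFP UMI, at a summed 549 to 853 CPM, against 7 to 9 of them at 375 to 444 CPM without one. The 13 macrophage markers, all detected, were lower with a GFP UMI in each mouse, at 10670 to 20280 CPM with and 19700 to 22970 CPM without one. Of 12 neutrophil markers 6 to 9 were detected with a GFP UMI, at 413 and 361 CPM in the stroke mice and 148 and 90.4 CPM in the control mice, against 8 to 11 at 69.5, 79.4, 129 and 81.0 CPM without one. Classical monocyte markers overlapped, at 2319 to 3425 CPM with and 2952 to 3241 CPM without a GFP UMI. Dendritic cell markers were at 568 CPM with and 187 CPM without a GFP UMI in control replicate 1, the mouse with the highest Nr4a1 and Nr4a3. Median depth also differed, at 5135.5 to 8167 UMIs with and 4391 to 4957 UMIs without a GFP UMI. The part of these in the result was not tested.

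**Figure D4:**
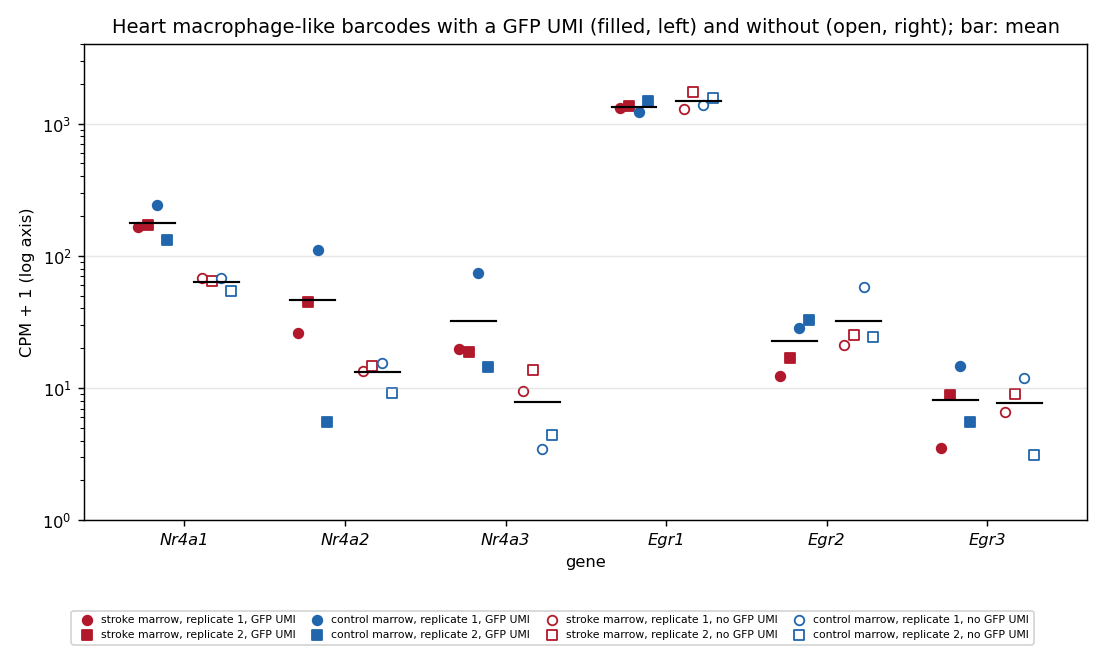
The 6 genes in heart macrophage-like barcodes with a GFP UMI (filled, left) and without one (open, right), as CPM + 1 on a log axis, with 1 symbol per mouse and bars for the mean of 4 mice. Nr4a1 (131 to 243 CPM with a GFP UMI and 53.3 to 67.2 CPM without) and Nr4a3 separate, while the other 4 genes overlap.

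A split by Lyve1, Timd4 and Folr2, markers of long-lived resident macrophages, went the same way for Nr4a1. Barcodes with none of these transcripts had 126 ± 29.0 CPM of Nr4a1, against 73.2 ± 16.7 CPM in barcodes with at least 1 of their UMIs. The lowest value of the negative barcodes, 110 CPM in control replicate 2, lay above the highest of the positive ones, 91.2 CPM in control replicate 1, as it did for 6.64% of genes. Nr4a3 averaged 25.5 ± 14.02 CPM without and 8.07 ± 4.21 CPM with these transcripts and overlapped by a little, since the lowest negative value (10.4 CPM) lay below the highest positive one (12.3 CPM). Egr1 (1673 ± 292 CPM without and 1387 ± 199 CPM with them) and Egr2 (29.7 ± 7.76 and 28.8 ± 17.4 CPM) also overlapped. Nonclassical monocyte markers summed to 650 to 729 CPM without these transcripts and 390 to 399 CPM with them. Classical monocyte markers went the other way, at 845 to 1528 CPM without and 3446 to 4391 CPM with them. Macrophage markers, which include the genes of the split, summed to 11920 to 17540 CPM without and 20010 to 24130 CPM with them. Median depth was lower without them in each mouse, at 3656 to 4925.5 UMIs against 4810.5 to 5730 UMIs. The part of these in the result was not tested.

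The other immediate early genes followed the 6 members between organs. Of 27 in the list, which was drawn up with earlier results known, 21 were called higher in heart over all barcodes and none lower, with a median log2 fold change of 2.24, against -0.05 over all genes tested. Of all genes tested, 9.93% were called higher. In blood alone 25 of the 27 passed the count filter, and a gene that passed through heart counts alone had to differ. Jun (4.80, edgeR adjusted p = 0.000921), Fos (4.27, 0.0081), Dusp1 (3.25, 0.0279) and Junb (2.66, 0.0085) are parts or brakes of the AP-1 and MAP kinase response. Klf2, a quiescence and flow-responsive factor of the same list, had 0.69 and an adjusted p of 0.0555. The summed level of the list was 15080 and 15350 CPM in hearts of the stroke mice and 12440 and 13840 CPM in hearts of the control mice, against 2406 to 3556 CPM in blood. By class, 22 of 24 tested were called higher in classical and 23 of 24 in nonclassical monocyte-like barcodes, with 1 lower in each. Of all genes tested, 13.4% and 10.3% were called higher in these classes. In their blood alone 22 and 20 genes of the list passed the count filter, so some of these calls had to come out.

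Chaperones that rise with heat and with tissue dissociation moved less. Of 13, 6 were called higher in heart over all barcodes and none lower (median 0.69), among them Hspa5 (0.99, edgeR adjusted p = 0.0153) and Dnajb1 (0.89, 0.0072). Hsp90ab1, a constitutive chaperone, had 0.46 and an adjusted p of 0.164. Their summed level was 4057 to 4859 CPM in heart and 2989 to 3324 CPM in blood. In blood alone 11 of these 13 genes passed the count filter. Of all genes tested, 9.93% were called higher in heart. Heart cells were released from solid tissue and blood cells were not, so that organ and preparation cannot be told apart in this design.

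Genes for factors that carry signals to these promoters were also compared between the organs. Over all barcodes, of the 13 genes for serum response factor, ternary complex factors, CREB, MEF2 and ERK, 1 was called higher in heart: Crem, a CREB relative that is itself induced by cyclic AMP (2.32, SE 0.221, edgeR adjusted p = 0.00348). The median of the list was 0.07, and 9.93% of all genes tested were called higher. By class, 3 of 11 tested were called higher in classical monocyte-like, 3 of 9 in neutrophil-like and 2 of 10 in nonclassical monocyte-like barcodes, where 3 were called lower. Of all genes tested in these classes, 13.4%, 15.5% and 10.3% were called higher. Of 4 tested partners and co-repressors, Nab2, a co-repressor of Egr proteins that Egr1 is known to induce, was called (1.86, SE 0.227, adjusted p = 0.00725), and Nab1, Rxra and Rxrb were not. Of 12 tested genes reported as Egr or Nr4a targets, 9 were called higher in heart, among them Ccl2 (log2 fold change 6.28), Tnf (3.74), Id3 (2.42) and Icam1 (2.16). In blood alone only 9 genes of this list passed the count filter. A gene that passed through its heart counts alone had to differ, so the values of these targets are a description.

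Likeness to the members was measured across the 57 sums of mouse, organ and class. By Pearson correlation of log2(CPM + 1) over 8777 genes, Egr1 was close to Jun (0.894), Ier2 (0.867), Ppp1r15a (0.848) and Skil (0.843). Nr4a1 was closest to Gch1 (0.822), Tnf (0.811), Skil (0.811), Mapkapk2 (0.783) and Wsb1 (0.77). Nr4a3 was closest to Tnfaip3 (0.856), which also led the genes like Nr4a2 (0.792), and Nr4a2 and Nr4a3 had a correlation of 0.762 with each other. Apart from the members, Egr2 and Egr3 had no gene above 0.634 and 0.584. Egr2 and Egr1 had a correlation of 0.66 with each other. The sums share mice and libraries, so these correlations describe the sums and carry no test.

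No member was called between stroke and control marrow in any organ or class. In hearts, Egr1 was the member furthest above 0 over all barcodes, with the 1055 and 1137 CPM of the stroke mice above the 739 and 1017 CPM of the control mice (log2 fold change 0.33, SE 0.185, edgeR adjusted p = 0.659). Stroke lay above control without overlap in 21.5% of the genes with a mean of at least 10 CPM. The other members had log2 fold changes from -0.63 (Nr4a3, SE 0.414) to -0.05 (Nr4a2, SE 0.163), and their groups overlapped. None of the 6 was among the 3 genes called of 12476, or 0.024%; 1034 genes had an unadjusted p under 0.05, and DESeq2 called 54. Nr4a3 shows how far a single mouse can move these values: its change was -1.16 without control replicate 2 (adjusted p = 0.0395) and 0.16 without control replicate 1, the mouse with 94.5 CPM against 37.9 to 46.8 CPM in the other hearts.

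Within heart classes the same held. In macrophage-like barcodes, where Egr1 was highest, its change was 0.05 (SE 0.16) and that of Nr4a1 -0.06 (SE 0.226). Egr2 had 18.3 and 22.7 CPM in the stroke mice and 48.0 and 24.8 CPM in the control mice, without overlap (-0.72, SE 0.29, edgeR adjusted p = 1.00), as 15.8% of genes had with stroke below. Without control replicate 2 it was called (-1.21, edgeR adjusted p = 0.0205), and over the 4 omissions the change ran up to -0.28. None of the 6 tested members and none of 10447 genes (0.0%) was called there, 369 genes had an unadjusted p under 0.05, and DESeq2 and the other settings called 0 to 63 genes. In nonclassical monocyte-like barcodes Nr4a1 had 885 and 925 CPM in the stroke mice and 1347 and 1023 CPM in the control mice (-0.39, SE 0.166), and Nr4a2 had 126 and 203 CPM in the stroke mice and 88.1 and 112 CPM in the control mice (0.63, SE 0.242). Both separated the groups, as 15.6% of genes did with stroke below and 17.0% with stroke above, with edgeR adjusted p = 1.00 for each; 0 of 4 tested members were called, against 0.0495% of genes.

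In heart dendritic cell-like barcodes Nr4a2 had 286 and 293 CPM in the stroke mice and 203 and 148 CPM in the control mice (0.70, SE 0.274, edgeR adjusted p = 0.406). Nr4a3 had 128 and 119 CPM in the stroke mice and 329 and 137 CPM in the control mice (-0.96, SE 0.382, adjusted p = 0.411). Of 4 tested members 0 were called, against 0.436% of genes. The donor groups did not overlap for Nr4a2, with stroke above, or for Nr4a3, Egr1, Egr2 and Egr3, with stroke below, each a separation that 18.6% of genes showed. Markers of other cells moved with the donor group in these sums. Of 12 neutrophil markers 8 and 7 were detected in the stroke mice, at 1668 and 979.5 CPM, and 5 and 6 in the control mice, at 187 and 127 CPM. Macrophage markers (12 and 10 of 13 detected, against 13 and 10) summed to 1963 and 1646 CPM in the stroke mice and 709 and 892 CPM in the control mice, and dendritic cell markers to 1204 and 1089 CPM in the stroke mice and 1534 and 1760 CPM in the control mice. Their part in the result was not tested. In classical monocyte-like barcodes the 4 changes lay between -0.27 (Egr1) and 0.29 (Nr4a3), and 0 were called, against 0.0166% of genes. There Nr4a1 and Nr4a3 separated with stroke above (19.2% of genes) and Egr1 with stroke below (14.6%), while neutrophil markers summed to 345 and 364 CPM in the stroke mice and 153 and 234 CPM in the control mice. In neutrophil-like barcodes the 5 tested members ranged from -0.75 (Nr4a3, SE 0.545) to 0.46 (Nr4a2, SE 1.15), 0 called against 0.0291%. Egr1 separated with stroke above, as 20.1% of genes did, and Nr4a3 was called without control replicate 2 (-1.54, adjusted p = 0.00879) but had 0.68 without control replicate 1. In B cell-like barcodes Nr4a2 had 12.6 and 78.7 CPM in the stroke mice and 5.58 and 28.5 CPM in the control mice, which overlapped (1.57, SE 0.561, edgeR adjusted p = 0.823), and 0 of 4 were called, against 0.0415%. Nr4a2 was called there with no count filter (edgeR adjusted p = 0.00431), when control replicate 2 was left out (3.18, 1.01e-05) or stroke replicate 1 was (2.14, 0.000991). Its change was -0.47 when stroke replicate 2 was left out. Nr4a1 separated with stroke above, as 16.8% of genes did.

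Among the members tested, Egr1 in heart NK cell-like barcodes had the largest fitted change between the donor groups. It had 304 and 94.5 CPM in the stroke mice and 84.0 and 21.5 CPM in the control mice, from 61, 10, 9 and 3 UMIs (2.14, SE 0.651, edgeR adjusted p = 0.649). Stroke lay above control without overlap, as it did in 18.3% of genes. It was called without a count filter (2.17, edgeR adjusted p = 0.000875), without control replicate 1 (3.31, 4.41e-05) and without stroke replicate 2 (2.65, 1.38e-05). In stroke replicate 1 a single barcode held 45.9% of the Egr1 UMIs, and without it the level was 172 CPM. Macrophage markers moved in the same direction in these sums: 11 of 13 were detected in each stroke mouse, at a summed 813 and 2061 CPM, and 2 and 3 of 13 in the control mice, at 46.6 and 35.8 CPM. Their part in the result was not tested. Of 4 tested members 0 were called, against 0.635% of genes.

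**Figure D5:**
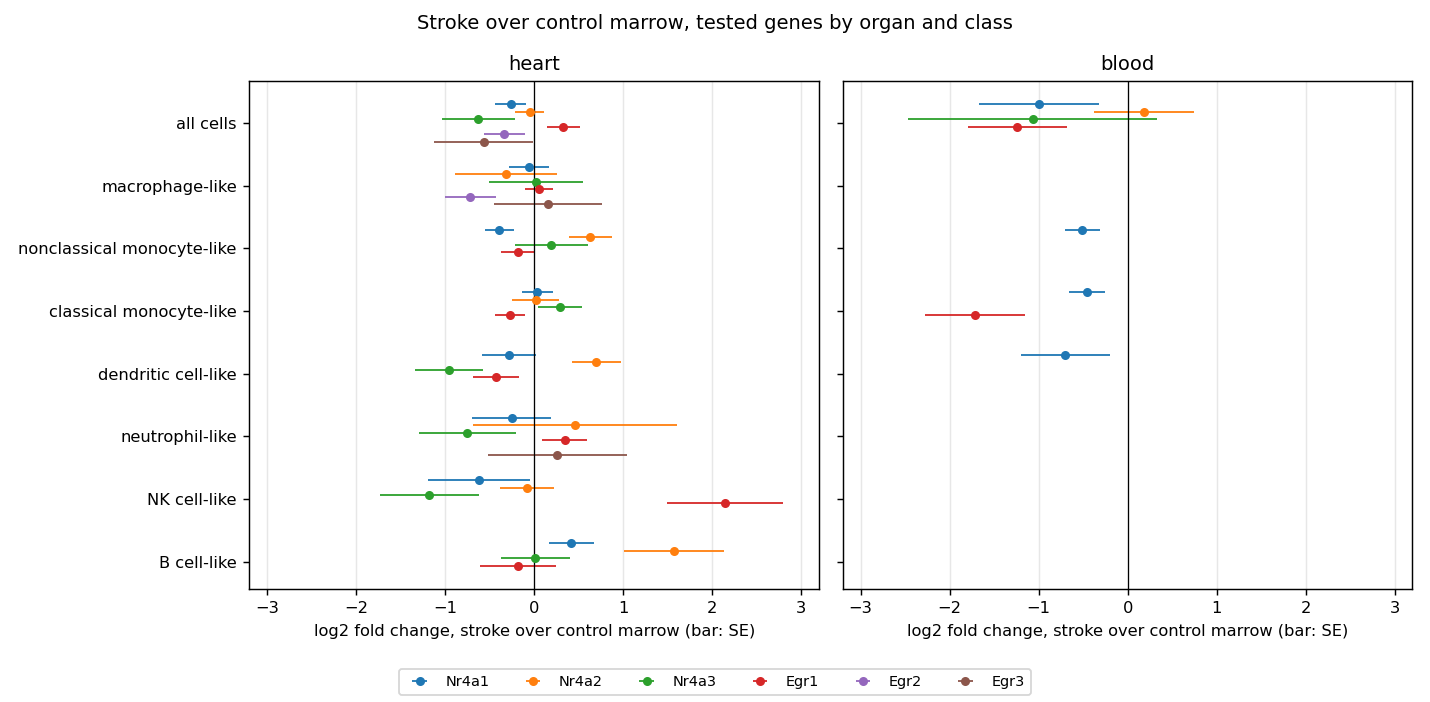
Log2 fold change of stroke over control marrow (x axis, bars are the standard error of the edgeR fit) for each member that passed the count filter, by class (rows) in heart (left) and blood (right). None was called; among these members the largest value is 2.14 for Egr1 in heart NK cell-like barcodes and the lowest is -1.71 for Egr1 in blood classical monocyte-like barcodes.

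In blood, Nr4a1 was lower with stroke marrow in several classes without passing the test. Nonclassical monocyte-like barcodes had 240 and 275 CPM in the stroke mice and 397 and 310 CPM in the control mice (-0.51, SE 0.196, edgeR adjusted p = 0.999). Classical monocyte-like barcodes had 45.3 and 56.2 CPM in the stroke mice and 70.1 and 59.9 CPM in the control mice (-0.45, SE 0.203, adjusted p = 1.00), and dendritic cell-like barcodes 16.3 and 15.0 CPM in the stroke mice and 27.4 and 23.1 CPM in the control mice (-0.70, SE 0.501, adjusted p = 1.00). The groups did not overlap in these 3 classes, a separation with stroke below that 14.7%, 15.3% and 13% of genes showed. Egr1 in classical monocyte-like barcodes also separated, at 2.43 and 5.62 CPM in the stroke mice and 9.74 and 9.46 CPM in the control mice (-1.71, SE 0.565, adjusted p = 1.00). It also lay lower with stroke marrow in nonclassical monocyte-like barcodes, at 4.24 and 5.38 CPM against 16.6 and 11.3 CPM. Over all blood barcodes it had 4.10 and 7.09 CPM against 19.0 and 8.63 CPM. These Egr1 means were under 10 CPM, so no share of separated genes is given. Egr1 overlapped in the other blood classes.

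None of the tested members was called: 0 of 1 in nonclassical monocyte-like barcodes (0.0% of genes called), 0 of 2 in classical ones (0.0114%) and 0 of 1 in dendritic cell-like barcodes (0.0%). Over all blood barcodes Nr4a1 had 53.9 and 12.8 CPM in the stroke mice and 73.3 and 61.4 CPM in the control mice (-1.0, SE 0.673, edgeR adjusted p = 0.968), without overlap, as 12.4% of genes had with stroke below. The low value belonged to stroke replicate 2, whose blood was mostly B cell-like. Without stroke replicate 1 the change was -2.32, but stroke replicate 2 was then the only stroke mouse, so no p is given. None of the 4 tested members and none of 11576 genes (0.0%) was called; 71 genes had an unadjusted p under 0.05 and DESeq2 called 4. In blood B cell-like, NK cell-like and neutrophil-like barcodes no member passed the count filter, and 0.0%, 0.0181% and 0.0209% of genes were called.

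The donor difference was not shown to differ between the organs for any member. Over all barcodes the interaction of stroke marrow with heart was 1.57 for Egr1 (SE 0.625, edgeR adjusted p = 0.742) and 1.04 for Nr4a1 (SE 0.637, 0.742), and none of 13085 genes was called (0.0%), with 552 at an unadjusted p under 0.05. By class 0 members were called, against 0.117% of genes in B cell-like, 0.0212% in NK cell-like, 0.0306% in dendritic cell-like and 0.0% in both monocyte-like classes. The smallest adjusted p of a member was 0.20 (Egr1 in neutrophil-like barcodes, 1.66, SE 0.556), where 0.489% of genes were called. When a mouse was left out, a donor group held a single mouse, so only the size of the interaction is given. Over all barcodes it ran from 0.767 to 2.319 for Egr1, 0.194 to 1.998 for Nr4a1 and -3.60 to 0.655 for Egr3. With 2 mice against 2, an exact permutation test of a single value cannot go below p = 0.333. In simulated counts for stroke against control over all heart barcodes, the edgeR test called 41.2% of genes changed 2-fold and 98% of those changed 4-fold, and for heart macrophage-like barcodes 70% and 100%. These counts were drawn with a dispersion shared by all genes (0.025 and 0.0136), and only genes above a low count limit were changed. The shares therefore need not hold for members that vary more between mice or have few counts. The interaction was not simulated.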

How the data were processed

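The deposited UMI counts per gene and barcode came from Cell Ranger 7.1.0 with mm10, as the submitters' processing notes and the file header state, with hashtag counts in the same matrix. Barcodes were matched to mice by their suffix and the sample number in the labels, an assumption. Barcodes with under 200 genes or over 10% mitochondrial UMIs were removed, organs were called with HTODemux (Seurat 5.3.0, quantile 0.99), and Scrublet removed 231 doublets (2.14%). Leiden clusters (scanpy 1.11.5, 2000 variable genes, 30 components, resolution 1) were named from marker lists, and the naming and hashtag settings were adjusted after seeing the data.

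For each class, UMIs of a mouse and organ with at least 20 barcodes were added up and tested with edgeR 4.0.16 (R 4.3.3; quasi-likelihood, TMM, filterByExpr, Benjamini-Hochberg 0.05 over all genes tested), with the mouse as a block between organs, since both organs of an animal share its library, and none between donors. Each mouse is 1 library, and 2 mice per donor group limit precision. Counting intervals are exact at 95% and cover counting error only. Alternatives were DESeq2 1.42.0, RLE scaling, no filter, stricter barcodes, other hashtag, doublet and clustering choices, the replicate block and leaving out each mouse. The tests were checked on simulated counts. The 6 genes and all lists were chosen with earlier results of these data known. Of each list the text names at most the 4 tested genes with the highest mean CPM and genes called over all barcodes, up to 6, and up to 5 genes most like each member; 1 gene is not reported here.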

Additional observations from a re-analysis of the deposited data

Results flagged for a closer look

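In 10 of 66 groups of 4 mice tested with Dixon's criterion, 1 mouse stood apart from the other 3; chance flags about 1 in 20 groups. In heart, control replicate 1 stood above the others in 4 groups. Nr4a3 was at 94.5 CPM over all its barcodes (37.9 to 46.8 CPM in the others), at 329 CPM in dendritic cell-like barcodes (119 to 137 CPM) and at 404 CPM in neutrophil-like barcodes (77.9 to 133 CPM). Egr3 was at 177 CPM in NK cell-like barcodes, against at most 4.99 CPM in the others, from a single barcode.

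In blood, stroke replicate 2 stood above the others in 5 groups. In NK cell-like barcodes it had 55.9 CPM of Nr4a2 (10.7 to 16.4 CPM in the others), 39.96 CPM of Nr4a3 (0 to 5.06 CPM) and 67.9 CPM of Egr1 (1.53 to 5.06 CPM), and a single barcode held 50%, 90.0% and 64.7% of those UMIs. Egr3 was at 3.46 CPM in B cell-like barcodes, where the others had 0, and at 3.88 CPM over all barcodes (0.179 to 0.679 CPM). Stroke replicate 2 had 6069163 UMIs in these B cell-like barcodes, against 264856 to 646503 in the others, where so low a level could go undetected. The value over all barcodes includes the same Egr3 UMIs and is not a separate observation. Nr4a3 in dendritic cell-like barcodes of the blood was at 30.7 CPM in control replicate 2 and at 0 to 4.22 CPM in the others.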

How the results depend on the processing

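With 2 mice per donor group, depth and replicate number limit what could be detected, and rare members (Egr2, Egr3) rested on few UMIs. Between organs, in counts that include members passing the filter through heart alone, 227 member values outside the leave-one-out runs kept their direction and their side of the threshold, 3 gained a call and 1 lost it. In the leave-one-out runs 99 kept both, 1 gained and 7 lost a call. Genes called over all barcodes numbered 1837, and 350 to 4838 when a mouse was left out; members called there were 5, and 2 to 6. With no filter on low counts, 5 members were called in B cell-like and 5 in neutrophil-like barcodes, against 3 and 3. DESeq2 called fewer genes than edgeR within classes: 281 against 603 in B cell-like, 105 against 302 in NK cell-like, 617 against 1223 in classical monocyte-like, 221 against 390 in dendritic cell-like, 559 against 925 in neutrophil-like and 375 against 888 in nonclassical monocyte-like barcodes. With no filter on low counts 691 were called in dendritic cell-like barcodes.

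Between donors over all heart barcodes, 3 genes were called, against 54 with DESeq2, 664 with no filter on low counts, 27 with the replicate block crossed (chosen after seeing the data), and 4 to 142 when a mouse was left out. In blood 0 were called, against 4 with DESeq2, 4 with no filter and 0 to 3282 when a mouse was left out. Within the heart and blood classes 0 to 20 genes were called, against 0 to 94 under the other settings and 0 to 288 when a mouse was left out. For the interaction, 0 genes over all barcodes became 0 to 3754, and 0 to 23 within classes became 0 to 96. No member was among the genes of the crossed block. Member calls in heart were 0 in the main setting. With no filter there was 1 in B cell-like barcodes, 2 in NK cell-like barcodes and 1 over all barcodes. The replicate block called 1 (Egr1 in NK cell-like barcodes, 1.94, edgeR adjusted p = 0.0140) and changed no other member call; it called 4 genes over all heart barcodes. Deviations of same-numbered stroke and control mice correlated at -0.314 in heart and -0.265 in blood. The mice also differ in classes and sex-linked transcripts in these sums. The correlations can therefore not show whether the numbers pair the mice. Leaving out a mouse gave 0 to 1 in B cell-like, NK cell-like, dendritic cell-like and neutrophil-like barcodes and over all barcodes, and 0 to 2 in macrophage-like barcodes. In blood it gave 0 to 1 in NK cell-like barcodes and 0 to 2 over all barcodes. For the interaction it gave 0 to 1 in B cell-like, NK cell-like, dendritic cell-like and neutrophil-like barcodes and 0 to 3 over all barcodes.

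Direction reversed, with the cause not tested, for Egr1 over all blood barcodes (0.34) and Nr4a1 in blood dendritic cell-like barcodes (0.16) with organs from the hashtag ratio, and for Nr4a2 in heart NK cell-like barcodes (0.013) with hashtag doublets alone removed. When a mouse was left out, the donor change in heart ran from -0.47 to 3.18 for Nr4a2 in B cell-like, -0.53 to 0.31 for Nr4a2 in NK cell-like, -0.15 to 0.23 for Egr1 in macrophage-like and -1.54 to 0.68 for Nr4a3 in neutrophil-like barcodes. Over all heart barcodes it ran from -1.25 to 0.55 for Egr3, -0.25 to 0.17 for Nr4a2 and -1.16 to 0.16 for Nr4a3. Over all blood barcodes it ran from -0.17 to 0.63 for Nr4a2 and -3.86 to 1.00 for Nr4a3. The interaction ran from -5.24 to 3.03 for Nr4a1 in B cell-like barcodes and, over all barcodes, from -5.00 to 1.93 for Egr2, -3.60 to 0.66 for Egr3 and -1.95 to 3.17 for Nr4a3.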
